A study of Danio rerio with 6 samples.

Results

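The myogenic regulators are the transcription factors and membrane proteins that make, keep and fuse muscle precursor cells. The set holds 10 genes, chosen by name: *pax7a*, *pax7b*, *six4b* and *myf5* as genes of muscle progenitors, *myod1*, *myog* and *mymk* as regulators of early differentiation, and *myf6*, *mef2ca* and *mef2d* as regulators of late differentiation. Because the symbol table names several zebrafish genes by their human orthologue, the 10 names matched 11 of the 32520 Ensembl identifiers in the count tables. Both *pax7* identifiers carry the symbol PAX7, so neither can be assigned to *pax7a* or *pax7b*, and both *mef2c* identifiers carry MEF2C, so that 1 of them may be a paralogue outside the set. All 11 identifiers passed the filter on low counts (more than 5 counts in at least 3 libraries), as did 23805 genes in all.

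In skeletal muscle, satellite cells are the resident stem cells and are marked by Pax7. When they are activated, they express the basic helix-loop-helix factors Myf5 and MyoD, then myogenin as they leave the cell cycle, and Mrf4 (the product of *myf6*) as the fibres mature. Factors of the Mef2 family act with them on contractile genes, and the membrane protein myomaker (*mymk*) lets myoblasts fuse. The thymus itself can hold myoid cells, which make contractile proteins, and in fish it lies close to muscle.

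Whole thymi of adult zebrafish aged 3 months were sequenced as polyA RNA from *foxn1*-/- fish, a line with an internal deletion in *foxn1*, the transcription factor on which thymic epithelial differentiation depends, and from *foxn1*+/+ fish. There were 3 libraries of each genotype, each made from the pooled RNA of 3 animals. The methods name an *ikzf1*:EGFP reporter background for the fish used in RT-PCR, and whether the sequenced fish carried it is not given in the sources used here. Since the tissue was whole thymus, fewer cells of a type and less RNA per cell cannot be told apart, nor can muscle cells within the organ from muscle taken along with it.

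Libraries of mutants held between 40960276 and 42198532 counts, and those of wild types between 31989159 and 41685232. Levels are given as CPM, counts scaled to a common library total with the trimmed mean of M-values (TMM), and 3 counts correspond to between 0.0623 and 0.0874 CPM, a floor that covers counting error only. The targeted gene, *foxn1* (ENSDARG00000011879), was at 2.85 ± 0.945 CPM in mutants and 9.85 ± 0.495 CPM in wild types (SD, n = 3 each). On the log2 scale it changed by -1.79 (standard error 0.263, adjusted p = 0.000792, edgeR quasi-likelihood test with Benjamini-Hochberg adjustment), and how many of these reads come from the deleted part is not known. Thymocyte markers took 336 to 842 CPM in sum in mutants, against 10272 to 13142 CPM in wild types, and all 14 of them were lower in mutants. Contractile muscle genes took between 11.5% and 15.8% of the counts of mutant libraries and between 1.06% and 2.43% of those of wild-type libraries, with all 36 identifiers (from 33 of 40 listed names) higher and a median log2 fold change of 3.35.

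The first comparison asks whether the regulators of muscle formation differ between thymi with and without functional *foxn1*. All 11 identifiers were higher in *foxn1*-/- thymi, and none was lower. The largest change was that of *myf6*, at 27.0-fold, followed by both *pax7* identifiers and *myf5*, at between 9.45-fold and 14.4-fold. The smallest was that of *mef2d*, at 1.5-fold. Genotypes did not overlap for any of the 11. Of all genes tested, 72.1% were called in either direction, 36.2% higher and 35.9% lower in mutants, and 37.8% were higher without overlap, so calls and gaps of this kind were frequent throughout these data. The median log2 fold change of the 11 identifiers was 1.94, against 0.02 over all genes tested.

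**Figure D1:**
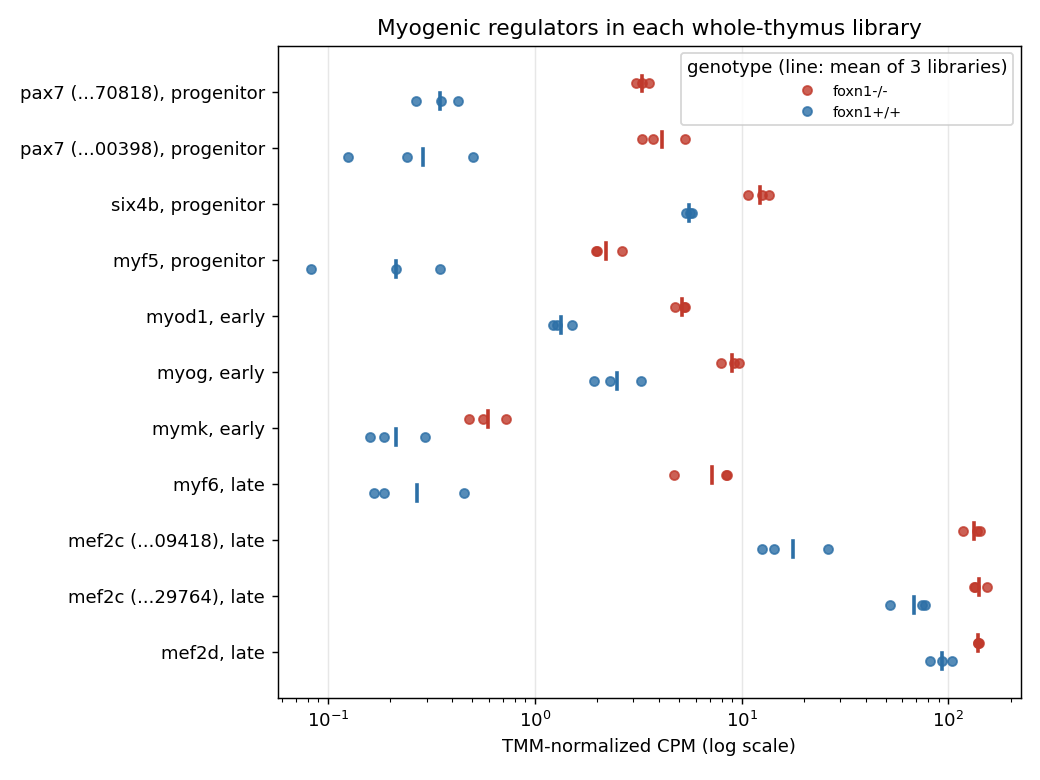
TMM-normalized CPM (log axis) of the 11 identifiers in each library, with foxn1-/- above foxn1+/+ for each gene and a short line at the mean of 3 libraries. The mutant libraries lie to the right of the wild-type libraries in every row, with the widest gap for *myf6* (7.22 against 0.269 CPM on average) and the narrowest for *mef2d* (140 against 93.0 CPM).

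Among the progenitor genes, Pax7 is the paired-box factor that defines satellite cells. In fish it is also used by precursors of xanthophores, the yellow pigment cells, and by parts of the brain. The identifier ENSDARG00000070818 had 106, 123 and 133 counts in mutants (3.09, 3.31 and 3.56 CPM), against 17, 16 and 10 counts in wild types (0.353, 0.425 and 0.267 CPM). The mutant libraries were close to each other, and the lowest of them was far above the highest wild type. The log2 fold change was 3.24 (standard error 0.260, 95% confidence interval 2.63 to 3.85, adjusted p = 6.9e-05, edgeR quasi-likelihood test with Benjamini-Hochberg adjustment).

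The other *pax7* identifier, ENSDARG00000100398, had 128, 123 and 199 counts in mutants (3.73, 3.31 and 5.32 CPM), against 6, 19 and 9 counts in wild types (0.125, 0.505 and 0.240 CPM). Mutant replicate 3 was the highest of its genotype, and wild-type replicate 2 stood above the other two wild types, without reaching the mutants. The gene rose by 3.85 on the log2 scale (standard error 0.486, interval 2.70 to 4.99, adjusted p = 0.00039, edgeR). Without wild-type replicate 2 the log2 fold change was 4.50. How reads that fit both paralogues were counted is not given in the sources used here, so their separate values are uncertain.

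Pigment cell and neural markers were measured beside *pax7*, in data where 36.2% of all genes tested were higher and 35.9% lower in mutants. Of 20 pigment cell identifiers, 14 were higher and 2 lower in mutants, with sums of 196, 157 and 223 CPM in mutants and 91.5, 104 and 101 CPM in wild types. Among those of xanthophores, *gch2* averaged 28.9 CPM in mutants and 13.5 CPM in wild types and *aox5* 6.21 CPM in mutants and 1.59 CPM in wild types. Also higher were *slc2a15b*, at 1.19 CPM in mutants and 0.282 CPM in wild types, and *csf1ra*, at 7.63 CPM in mutants and 3.54 CPM in wild types. *csf1ra* is on the list of B cells and myeloid cells as well. *scarb1* was lower, at 10.01 CPM in mutants and 22.7 CPM in wild types, and *xdh* and *pts* were not called. Of 22 tested identifiers of brain and neurons, 18 were higher and none lower, and their sums were 348, 1084 and 679 CPM in mutants and 91.9, 206 and 232 CPM in wild types. Mutant replicate 3 was the highest library for both *pax7* identifiers and for the pigment cell sum, and mutant replicate 2 for the neural sum. The part of pigment and neural cells in the *pax7* levels was not tested.

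*myf5*, the earliest of the myogenic basic helix-loop-helix factors, was scarce in wild types. ENSDARG00000007277 had 69, 98 and 74 counts in mutants (2.01, 2.64 and 1.98 CPM), against 4, 8 and 13 counts in wild types (0.0831, 0.212 and 0.347 CPM). Wild-type replicate 1 lay little above the floor of 3 counts, whereas every mutant library lay well clear of it. *myf5* rose by 3.38 on the log2 scale (standard error 0.467, interval 2.28 to 4.48, adjusted p = 0.000584, edgeR).

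*six4b* encodes a homeobox factor of the sine oculis family, which works with Eya cofactors upstream of the myogenic factors and in sensory and cranial placodes. ENSDARG00000031983 had 431, 503 and 400 counts in mutants (12.6, 13.5 and 10.7 CPM), against 260, 212 and 215 counts in wild types (5.40, 5.63 and 5.74 CPM). The wild types were nearly equal to each other, and the mutants, more spread out, all lay well above them. Its log2 fold change of 1.13 (standard error 0.141, interval 0.80 to 1.47, adjusted p = 0.000366, edgeR) was the smallest of the progenitor genes, whose median was 3.31. The RefSeq table for the assembly GRCz12tu lists *six4a* among the synonyms of *six4b*, so these names have been exchanged in some sources. The identifier listed as *six4a* (ENSDARG00000004695), which lies outside the set, was at 27.4 ± 3.28 CPM in mutants and 6.10 ± 0.593 CPM in wild types (SD, n = 3 each), a log2 fold change of 2.17 (adjusted p = 3.91e-05, edgeR).

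The early differentiation regulators had smaller log2 fold changes than *pax7* and *myf5*, with a median log2 fold change of 1.84 and a range of 1.46 to 1.94. *myod1*, which commits cells to the muscle lineage, had 183, 177 and 198 counts in mutants (ENSDARG00000030110; 5.33, 4.76 and 5.29 CPM), against 59, 48 and 57 counts in wild types (1.23, 1.27 and 1.52 CPM). Both genotypes were tight, and no library of one approached the other. *myod1* rose by 1.94 on the log2 scale (standard error 0.188, interval 1.49 to 2.38, adjusted p = 0.000133, edgeR).

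*myog*, which drives terminal differentiation of myoblasts, was likewise higher in mutants. ENSDARG00000009438 was at 9.18, 7.97 and 9.73 CPM in mutants, against 1.93, 2.31 and 3.25 CPM in wild types. Wild-type replicate 3 was the highest wild type and still lay well under the lowest mutant. The log2 fold change was 1.84 (standard error 0.227, interval 1.31 to 2.38, adjusted p = 0.000348, edgeR).

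*mymk*, the myomaker gene needed for fusion of myoblasts into fibres, had the fewest counts of the members in mutants. ENSDARG00000103988 had 25, 21 and 18 counts in mutants (0.729, 0.565 and 0.481 CPM), against 9, 6 and 11 counts in wild types (0.187, 0.159 and 0.293 CPM). The genotypes did not overlap, but counts were so low that the interval was wide. The log2 fold change was 1.46 (standard error 0.368, interval 0.60 to 2.33, adjusted p = 0.00918, edgeR).

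Among the late regulators, *myf6* encodes Mrf4, which in mice is the most abundant myogenic factor of mature fibres. ENSDARG00000029830 had 290, 175 and 318 counts in mutants (8.45, 4.71 and 8.50 CPM), against 8, 7 and 17 counts in wild types (0.166, 0.186 and 0.454 CPM). Mutant replicate 2 was well below the other mutants, and wild-type replicate 3 well above the other wild types, with a broad gap between the genotypes. *myf6* rose by 4.76 on the log2 scale (standard error 0.452, interval 3.69 to 5.82, adjusted p = 0.000125, edgeR). Of all genes tested, 99.8% had a smaller log2 fold change. In RefSeq GRCz12tu, which is not the build of the counts, *myf6* and *myf5* are neighbours with 0 protein-coding genes between them, and the *myf6* model overlaps 1 gene, *rps16*, which encodes a ribosomal protein. Models of *pax7a*, *pax7b*, *six4b*, *myf5* and *mymk* also overlap at least 1 other gene in that annotation. The treatment of reads in such overlaps is not given in the sources used here. *rps16* itself was not called (adjusted p = 0.223, edgeR).

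The MEF2C identifiers encode MADS-box factors that act with the myogenic factors on contractile genes. Mef2c is used in muscle, heart, endothelium and B cells alike. ENSDARG00000009418 was at 142, 117 and 138 CPM in mutants, against 12.6, 14.3 and 26.1 CPM in wild types. Wild-type replicate 3 stood above the other wild types, and the lowest mutant was several times higher than it. The log2 fold change was 2.91 (standard error 0.293, interval 2.21 to 3.60, adjusted p = 0.000173, edgeR).

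The second MEF2C identifier, ENSDARG00000029764, was at 153, 133 and 134 CPM in mutants, against 77.2, 52.1 and 74.8 CPM in wild types. It was thus well expressed in both genotypes, without overlap. Its log2 fold change was 1.04 (standard error 0.168, interval 0.65 to 1.44, adjusted p = 0.00121, edgeR). The intervals of the MEF2C identifiers did not overlap each other, and the difference between these identifiers was not tested.

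Markers of other cells that use Mef2c also moved, beside 36.2% of all genes tested that were higher and 35.9% that were lower in mutants. Of 14 endothelial identifiers 12 were higher in mutants and none lower, with a median log2 fold change of 1.59. Endothelial sums were 429, 297 and 304 CPM in mutants and 108, 112 and 140 CPM in wild types. Of 13 identifiers of B cells and myeloid cells 7 were higher and 2 lower. Their sums were nevertheless lower in mutants, at 874, 1005 and 663 CPM, against 3955, 3800 and 3368 CPM in wild types. The 2 lower identifiers, *cd74a* and *lcp1*, were the most abundant of the list in both genotypes. *cd74a* averaged 590 CPM in mutants and 2533 CPM in wild types, and *lcp1* 118 CPM in mutants and 1114 CPM in wild types. The B cell genes *cd79a*, *cd79b*, *pax5* and *ighm* and both EBF1 identifiers were all higher, as was *csf1ra*. On average *ighm* was at 36.8 CPM in mutants and 4.49 CPM in wild types. The largest fall of the list, that of *lcp1*, was -3.24 on the log2 scale. Of 16 heart muscle identifiers 8 were tested, of which 5 were higher and 2 lower. The highest of those that rose, ENSDARG00000114031, averaged 71.2 CPM in mutants and 8.36 CPM in wild types. It entered the list through the human symbol MYH6 alone, so whether it is a heart gene in zebrafish is not known here. The identifier listed as *myh6* (ENSDARG00000090637) averaged 2.03 CPM in mutants and 0.121 CPM in wild types. *hand2* was lower, at 2.99 CPM in mutants and 18.0 CPM in wild types. TNNT2 ENSDARG00000020610 was also lower, at 16.3 CPM in mutants and 31.1 CPM in wild types. The other TNNT2 identifier, ENSDARG00000100694, was higher, at 5.29 CPM in mutants and 1.29 CPM in wild types. The other 8 had at most 5 counts in any library, among them *myl7*, a myosin light chain gene of the heart, with 0, 0 and 0 counts in mutants and 5, 1 and 4 counts in wild types. The part of endothelium, B cells and heart muscle in the MEF2C levels was not tested.

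*mef2d*, which is expressed widely across tissues, changed least. ENSDARG00000040237 was at 140, 139 and 139 CPM in mutants, against 92.7, 81.8 and 105 CPM in wild types. Mutants were almost identical, and all wild types lay below them. The log2 fold change was 0.58 (standard error 0.117, interval 0.31 to 0.86, adjusted p = 0.00323, edgeR). With scaling by library size alone, which moves the median of all genes by -0.40 on the log2 scale, *mef2d* had a log2 fold change of 0.18 and was no longer called (adjusted p = 0.151, edgeR), while the other 10 identifiers stayed higher.

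**Figure D2:**
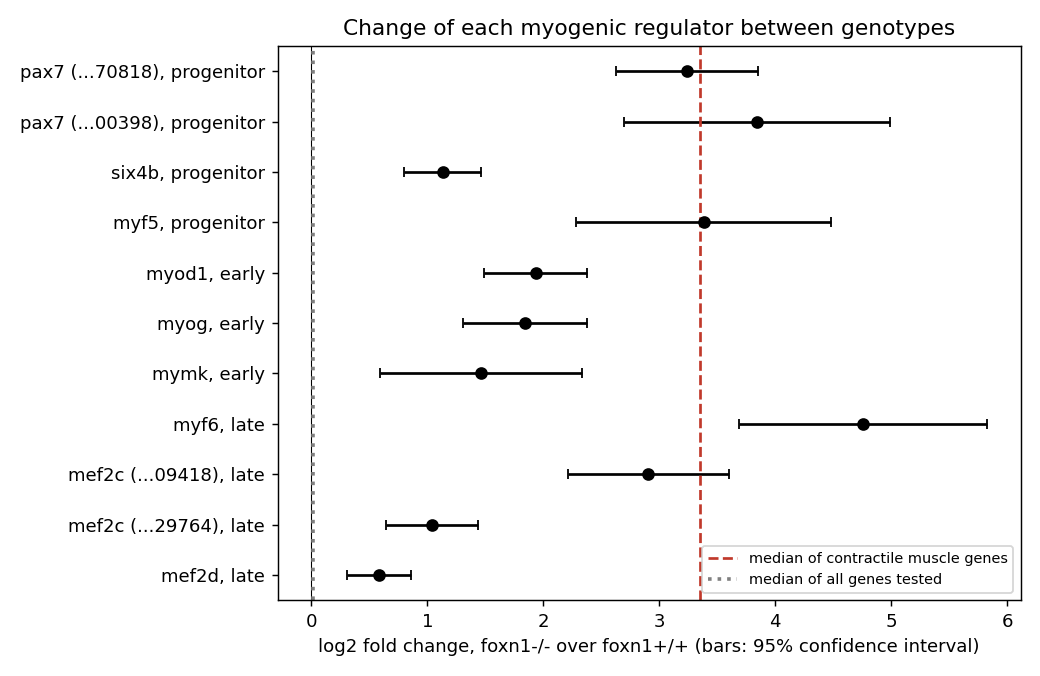
Log2 fold change, foxn1-/- over foxn1+/+, of each identifier (points) with its 95% confidence interval (bars), the median of 36 contractile muscle identifiers (dashed line, 3.35) and that of all genes tested (dotted line, 0.02). Intervals of the *pax7* identifiers, *myf5* and MEF2C ENSDARG00000009418 cross the contractile median, and that of *myf6* lies above it. Those of *six4b*, the early regulators, MEF2C ENSDARG00000029764 and *mef2d* lie below it.

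The next comparison sets each regulator against the amount of contractile muscle RNA in the same library, as the log2 of its counts over the summed counts of the contractile list (0.5 added to each). This asks whether a regulator changed by more or by less than the contractile genes did as a sum. Of the 11 identifiers, 7 were lower relative to contractile RNA in mutants without overlap of the genotypes, 1 was higher without overlap and 3 overlapped. Over all genes tested, 89.3% were lower without overlap and 0.193% (46 genes) were higher without overlap, and the median difference was -3.56, with the contractile sum, higher in every mutant library, as the denominator. With 3 libraries of each genotype, an exact permutation test cannot give a two-sided p below 0.1, so none of these differences could pass 0.05.

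For the progenitor genes other than *six4b*, the genotypes overlapped relative to the contractile sum. For *pax7* ENSDARG00000070818 the log2 ratio was -15.51 ± 0.31 in mutants and -15.18 ± 0.97 in wild types (SD, n = 3 each), a difference of -0.33 (exact permutation p = 0.6, two-sided). For ENSDARG00000100398 it was -15.23 ± 0.59 in mutants and -15.63 ± 1.33 in wild types, a difference of 0.40 (exact permutation p = 0.6), which was 1.17 without wild-type replicate 2. *myf5* was at -16.11 ± 0.15 in mutants and -16.03 ± 0.83 in wild types, a difference of -0.07 (exact permutation p = 0.8). In all 3 cases the mutants lay within the range of the wild types, and the wild-type spread was wide. Each overlap rested on 1 wild-type library: it ended without replicate 3 for ENSDARG00000070818 (difference -0.86), without replicate 2 for ENSDARG00000100398, and without replicate 1 for *myf5* (difference -0.52). Without wild-type replicate 2 the differences of ENSDARG00000070818 and *myf5* turned positive, at 0.10 and 0.30. *six4b* differed by -2.43 (exact permutation p = 0.1), with every mutant between -13.69 and -13.57 and every wild type between -11.88 and -10.64.

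The early regulators were all lower relative to contractile RNA in mutants, as were 89.3% of all genes tested without overlap. The median difference over all genes tested was -3.56. The log2 ratio of *myod1* was -14.89 ± 0.31 in mutants and -13.26 ± 0.51 in wild types, that of *myog* was -14.09 ± 0.38 in mutants and -12.39 ± 0.41 in wild types, and that of *mymk* was -17.99 ± 0.26 in mutants and -15.88 ± 0.22 in wild types (SD, n = 3 each). Their differences were -1.63, -1.69 and -2.11 (exact permutation p = 0.1 for each), and the genotypes did not overlap for any of these genes.

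Late regulators were split. *myf6* was at -14.44 ± 0.69 in mutants and -15.66 ± 0.31 in wild types, and was the only member higher relative to contractile RNA without overlap when all libraries were used (difference 1.22, exact permutation p = 0.1). Its lowest mutant, replicate 2, was at -15.21 and its highest wild type at -15.47, and with 3 counts added in place of 0.5 the genotypes overlapped (exact permutation p = 0.2). The MEF2C identifier ENSDARG00000009418 differed by -0.58, ENSDARG00000029764 by -2.50 and *mef2d* by -2.97 (exact permutation p = 0.1 for each). For ENSDARG00000009418 the gap was very narrow, with the highest mutant at -9.88 and the lowest wild type at -9.86. These 15 ratio comparisons, including those of *myog* below, form a single family, in which a raw p of 0.1 became 0.125 after Benjamini-Hochberg adjustment.

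**Figure D3:**
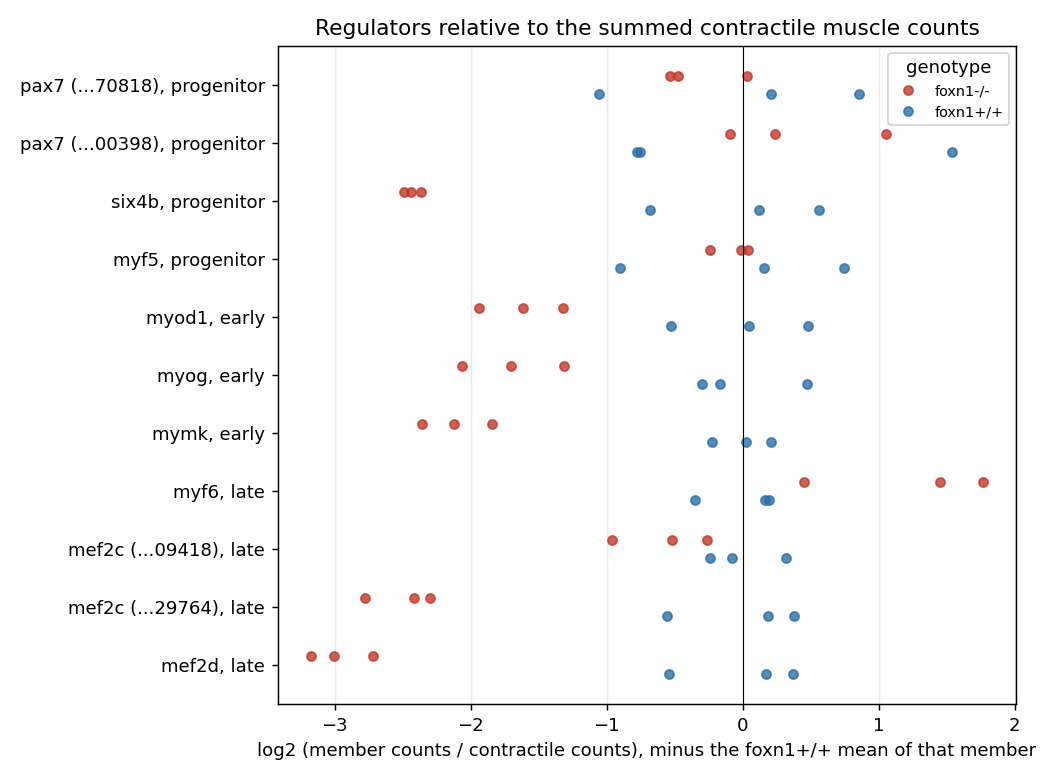
Log2 of member counts over summed contractile counts in each library, set to 0 at the wild-type mean of each member, with foxn1-/- above foxn1+/+. Points of *pax7* and *myf5* mix between genotypes, those of *myf6* lie to the right in mutants, and those of *six4b*, *myod1*, *myog*, *mymk*, MEF2C and *mef2d* lie to the left, from -0.58 to -2.97 on average.

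Differentiation and progenitor genes were then compared within each library, by the log2 ratio of *myog* counts to those of each progenitor gene. Relative to *pax7* ENSDARG00000070818, *myog* was at 1.57, 1.26 and 1.45 in mutants, against 2.42, 2.41 and 3.54 in wild types. Relative to ENSDARG00000100398 it was at 1.3, 1.26 and 0.87 in mutants, against 3.85, 2.17 and 3.69 in wild types. Both ratios were lower in every mutant than in every wild type, by 1.36 and 2.09 on average (exact permutation p = 0.1 for each). Relative to *myf5*, *myog* was at 2.18, 1.59 and 2.29 in mutants, against 4.38, 3.36 and 3.18 in wild types, a difference of -1.62 (exact permutation p = 0.1). Relative to *six4b* the order was the opposite, at -0.45, -0.76 and -0.14 in mutants, against -1.48, -1.28 and -0.81 in wild types, a difference of 0.74 (exact permutation p = 0.1). In value, *pax7* and *myf5* thus changed by more than *myog*, and *six4b* by less, with none of these p-values able to pass 0.05. The share of all genes whose ratio to *myog* separates the genotypes in this way was not computed. In CPM, 37.8% of all genes tested were higher in mutants without overlap.

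Within genotypes, members did not all follow contractile RNA from library to library. Summed contractile levels were 160966, 179382 and 130200 CPM in mutant replicates 1 to 3, against 11724, 9037 and 21686 CPM in wild-type replicates 1 to 3. Wild-type replicate 3, the library richest in contractile RNA of its genotype, was also the highest wild type for every member except both *pax7* identifiers and MEF2C ENSDARG00000029764. Mutant replicate 2 had the most contractile RNA of all and was the highest mutant for *six4b* and *myf5*. It was the lowest mutant for *myf6*, *myod1*, *myog*, both MEF2C identifiers and *pax7* ENSDARG00000100398, and ranked in the middle for *mymk*, *mef2d* and *pax7* ENSDARG00000070818.

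Other genes of the myogenic pathway were listed by role. Of 72 names 71 matched, giving 76 identifiers of which 73 were tested. In mutants 53 were higher, 12 were lower and 8 were not called, with a median log2 fold change of 1.61. Over all genes, 36.2% were higher and 35.9% lower. PAX3 ENSDARG00000010192, *vgll2a* and *tcf21*, all called higher, had at most 5 counts in every wild-type library. They passed the filter through the mutants alone. HES6 ENSDARG00000007097, called lower, passed it through the wild types alone.

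Upstream regulators specify muscle precursors ahead of the myogenic factors, and of 11 tested 9 were higher, 1 lower and 1 not called. *eya1*, the coactivator of sine oculis factors, had the highest mean of the list over all 6 libraries. It was at 131 ± 5.62 CPM in mutants and 44.7 ± 7.62 CPM in wild types (SD, n = 3 each). Its log2 fold change was 1.55 (adjusted p = 0.000108, edgeR). The largest rise was that of *meox2a*, a homeobox gene of somites and limb muscle, listed as MEOX2, at 15.7 CPM in mutants and 2.28 CPM in wild types (log2 fold change 2.79). *eya2* was lower, at 33.4 CPM in mutants and 49.2 CPM in wild types (log2 fold change -0.56, adjusted p = 0.00568, edgeR). A PAX3 identifier (ENSDARG00000010192), the paralogue that marks embryonic muscle precursors and neural crest, had 11, 18 and 12 counts in mutants, against 0, 3 and 4 counts in wild types. Its log2 fold change was 2.63 (adjusted p = 0.0140, edgeR), and it was 1.97 without wild-type replicate 1 and 3.28 without wild-type replicate 3. This identifier was tested only because its mutant counts passed the filter. The other PAX3 identifier had 0, 1 and 1 counts in mutants and none in wild types, and was not tested.

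Among surface and niche genes of satellite cells, 9 of 14 identifiers were higher, 4 lower and 1 not called. M-cadherin (*cdh15*), which anchors satellite cells to the fibre, rose most, with 5.34 ± 1.0 CPM in mutants and 0.674 ± 0.274 CPM in wild types (SD, n = 3 each; log2 fold change 2.99, adjusted p = 0.000212, edgeR). Syndecan-4 (*sdc4*), a surface proteoglycan also made by many other cells, had the highest mean of the list over all 6 libraries. It was at 362 CPM in mutants and 121 CPM in wild types. The chemokine receptor *cxcr4* fell most, with 8.13 CPM in mutants and 50.6 CPM in wild types for ENSDARG00000057633 (log2 fold change -2.64). The other CXCR4 identifier, ENSDARG00000041959, was also lower, at 93.2 CPM in mutants and 363 CPM in wild types (log2 fold change -1.96). In wild types it was thus more abundant than *sdc4*. *cxcr4* is also a gene of thymocytes, whose markers were lower in these libraries, and their part in it was not tested.

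In the Mef2 family and its cofactors 13 of 16 identifiers were higher, 1 lower and 2 not called, with a median log2 fold change of 2.93, the highest of these lists. *smyd1* ENSDARG00000009280, a muscle methyltransferase needed for myofibril assembly, was at 386, 358 and 371 CPM in mutants, against 10.4, 20.3 and 55.1 CPM in wild types. Its log2 fold change was 3.70 (adjusted p = 0.00132, edgeR), and 4.60 without wild-type replicate 3. Of the Mef2 paralogues, MEF2A was at 177 CPM in mutants and 75.4 CPM in wild types (log2 fold change 1.24), and *mef2ab* at 2.28 CPM in mutants and 0.412 CPM in wild types (log2 fold change 2.48). MEF2B, which in mammals acts in germinal centre B cells, was at 2.21 CPM in mutants and 3.78 CPM in wild types (log2 fold change -0.78, adjusted p = 0.0192, edgeR). That call was lost without wild-type replicate 1 (adjusted p = 0.0674), mutant replicate 1 (adjusted p = 0.0725) or mutant replicate 3 (adjusted p = 0.0559), each in edgeR.

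Of the fusion genes 8 of 10 identifiers were higher, 1 lower and 1 not called. *mymx*, which encodes myomixer, the partner of myomaker, was at 3.53 CPM in mutants and 0.926 CPM in wild types (log2 fold change 1.93), and is named here after its values were seen because it acts with *mymk*. JAM3 ENSDARG00000061794, a junctional adhesion molecule needed for fusion in zebrafish, rose most, to 50.5 CPM in mutants, against 8.13 CPM in wild types (log2 fold change 2.63). The adaptor *crkl* was lower, at 59.9 CPM in mutants and 144 CPM in wild types (log2 fold change -1.26).

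E proteins pair with the myogenic factors, and Id proteins, musculin and Twist hold them back. The list also holds other genes, among them *mstna*, *mstnb*, *fsta*, *snai1a*, *snai2* and *tcf21*. Of 22 identifiers 14 were higher, 5 lower and 3 not called. No E protein was called higher: *tcf3a*, *tcf3b* and *tcf4* were lower (log2 fold changes -2.50, -1.94 and -1.33), and *tcf12* was not called. Thymocyte markers were lower in these libraries too, and the part of thymocytes in the E protein levels was not tested. Musculin (*msc*) rose most, with 2.98 CPM in mutants and 0.370 CPM in wild types (log2 fold change 3.00). *id3*, an inhibitor of E proteins that is also used in lymphocytes, fell most (log2 fold change -2.70). It averaged 34.9 CPM in mutants and 227 CPM in wild types, and had the highest mean of the list over all 6 libraries. In mutants it lay below *id1*, which averaged 160 CPM in mutants and 69.5 CPM in wild types.

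**Figure D4:**
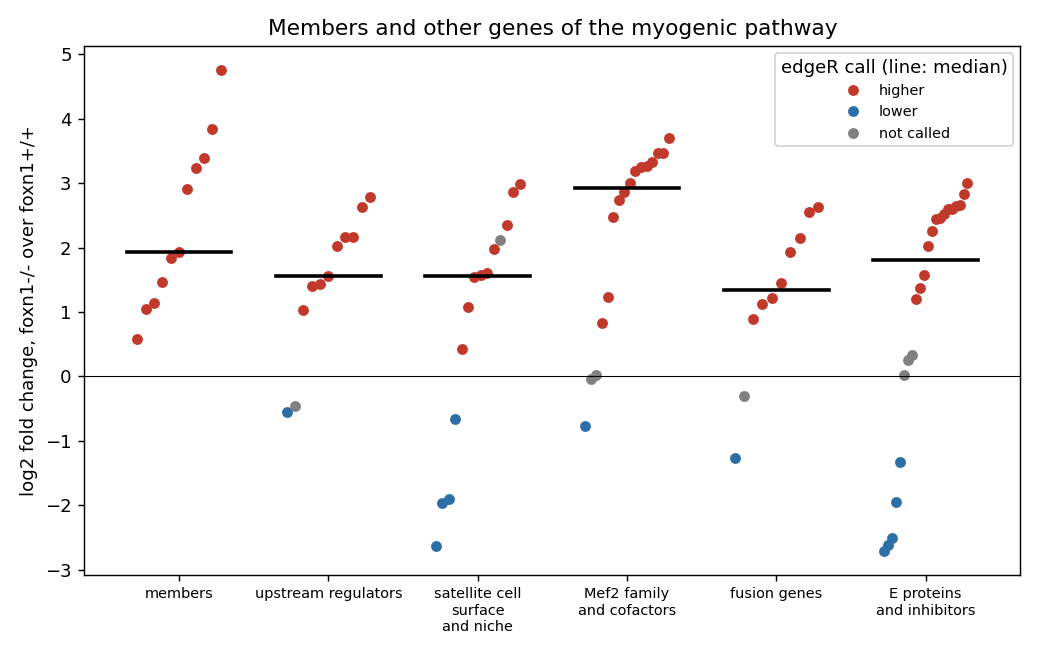
Log2 fold change, foxn1-/- over foxn1+/+, of every tested identifier of the members and of the 5 lists of other myogenic genes, coloured by the edgeR call, with a line at each median. All 11 members lie above 0, whereas each of the other lists holds identifiers below 0, and medians of these lists range from 1.33 to 2.93.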

How the data were processed

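Whole-thymus polyA RNA was measured in 6 libraries, grouped by the genotype in the sample labels. The authors deposited unnormalized whole-number counts for each Ensembl gene. The submitters' processing notes name Trim Galore 0.4.3.1, HISAT2 2.1.0, featureCounts 1.6.1.0 and GRCz11. The annotation release, and how strand and reads with several alignments were handled, are not given in the sources used here. The labels name a NEBNext kit for low input, and the methods an Ultra RNA kit.

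Genes were kept if at least 3 libraries had more than 5 counts (99.96% to 99.98% of all counts). TMM normalization was followed by the two-sided quasi-likelihood test of edgeR 4.0.16 in R 4.3.3, with robust estimation and Benjamini-Hochberg adjustment over 23805 genes at 0.05. Standard errors were derived from the log2 fold change and its F statistic. Ratios of counts were compared by exact permutation over the 6 libraries. The tests were run on simulated counts first. Alternatives were DESeq2 1.42.0, voom and treat at a fold of 1.2 in limma 3.58.1 (the study's test), DESeq2 size factors, library size alone, a block for replicate number, a minimum of 10 counts per library, no filter, and leaving out each library.

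Identifiers were matched by symbol (29201 have one), and symbols are those of the table, often of the human orthologue. Named were all members, paralogues of members and *foxn1*. Of each other pathway list, the gene with the highest mean CPM over all 6 libraries, the largest rise and the largest fall were named. Some further pathway genes were named after their values were seen. Markers of other cells are given as sums and counts, with some examples chosen after their values were seen. Members and lists were chosen with earlier results of these data known. Replicates are pools of fish, so p-values measure the spread between pools. No 2 libraries were copies: replicates had a chi-square per degree of freedom between 34.1 and 106, where sampling noise alone gives about 1.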

Additional observations from a re-analysis of the deposited data

How the results depend on the processing

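Under 13 alternative fits, the log2 fold changes of all 11 identifiers stayed positive. Requiring at least 10 counts in every library left 7 of the 11 identifiers in the test, all called higher (7), because *myf5*, *mymk*, *myf6* and *pax7* ENSDARG00000100398 had fewer counts in a wild-type library. All 11 were called in the other alternatives, except *mef2d* with library size alone (0.18, adjusted p = 0.151). That scaling moved the share of calls that were higher over all genes to 38.4%, against 50.2% with TMM. MEF2B lost its call in edgeR with the replicate block (adjusted p = 0.0502), in voom and treat (0.0543), and without any of 3 libraries named above. A check of deviations did not show that the replicate numbers pair the samples. Those of same-numbered libraries correlated at 0.139, -0.061 and -0.009, and not every library correlated best with its own number. The value of 0.139 was the largest of any pair, and such a check on 3 libraries of each genotype cannot exclude pairing. With the number as a block, 11 members and 53 other pathway genes were higher and 11 pathway genes lower, and over all genes 8237 were higher and 8071 lower. Depth limits the precision of scarce genes such as *mymk*, *myf5* and PAX3 ENSDARG00000010192, with between 0 and 13 counts in wild types.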
